A study of Mus musculus with 4 samples.

Results

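The genes examined are those of MHC class II presentation, a set of 10 genes taken by name: H2-Aa, H2-Ab1, H2-Eb1, H2-DMa, H2-DMb1, H2-DMb2, H2-Oa, H2-Ob, Cd74 and Ciita. All 10 had a probe among the 34844 gene names on the array, with 13 probes in all, and 12 of these probes were tested. Gene expression was measured in salivary glands (SGs) with 1-colour Agilent whole mouse genome arrays, where a brighter spot means more of the transcript it binds. The comparison asked how the SGs differ when MyD88, the adaptor of most Toll-like receptors, is missing. One group is Myd88-null (Myd88-/-) and the other wild-type (Myd88+/+). Both are female C57/BL6 mice aged 10 weeks, with 2 arrays for each label, and the tissue is the submandibular gland (SMG) together with the sublingual gland. According to the methods, both genotypes were born to heterozygous parents from a backcrossed line. The labels say that lymph nodes, connective tissue and fat were dissected away from the glands. The study's text gives a number of mice that differs from the number of arrays per label, and nothing states whether each array came from 1 mouse or a pool, so p-values measure only the spread between these arrays.

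MHC class II molecules are pairs of an alpha and a beta chain that display peptides from engulfed proteins to CD4 T cells. The invariant chain Cd74 escorts new pairs to the endosome, H2-DM exchanges its remnant for a peptide, and H2-DO restrains H2-DM, mainly in B cells. Ciita switches these genes on in dendritic cells, B cells and macrophages, and interferon-gamma can induce it in many other cell types.

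The tissue and the genotype labels were checked first. All 9 salivary gland markers were well above background on all 4 arrays, the brightest being Dcpp1, so the tissue matched its label. Myd88 has 1 probe with 10 spots, which begins at base 1629 of the transcript. On the scale used for every level here, log2 signal relative to the 75th percentile of the array, it was at 1.51 and 1.41 on Myd88-/- arrays 1 and 2, against 1.15 and 1.07 on Myd88+/+ arrays 1 and 2. The probe was thus not lower on the arrays labelled Myd88-/-. Whether it lies in the deleted part is not given in the sources used here, so it does not check the labels, and every direction below is between arrays as labelled. Probes well above background made up 52.2% and 68.4% of Myd88-/- arrays 1 and 2, and 74.2% and 55.1% of Myd88+/+ arrays 1 and 2, so the arrays differed in how many dim probes they read.

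Most members were read from a single stretch of 60 bases, and 4 of these probes are printed here to show what was measured. The probe of H2-Aa lies at chr17:34421285-34421344, minus strand, and that of H2-DMb2 at chr17:34284764-34284823, plus strand (NCBI37/mm9). The probe of H2-DMa, with its ends at chr17:34274300-34274863, and the H2-Ob probe brightest over the 4 arrays, at chr17:34380481-34380849, both on the plus strand, each join 2 exons, since their 60 bases span 564 and 369 bases of the genome.
H2-Aa probe: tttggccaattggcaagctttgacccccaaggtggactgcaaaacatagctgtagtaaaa
H2-DMb2 probe: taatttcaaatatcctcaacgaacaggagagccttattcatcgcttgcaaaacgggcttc
H2-DMa probe: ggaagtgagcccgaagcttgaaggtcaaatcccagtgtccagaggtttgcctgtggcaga
H2-Ob probe: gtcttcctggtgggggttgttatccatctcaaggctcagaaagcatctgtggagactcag

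H2-Aa, H2-Ab1 and H2-Eb1 are classical chains, of the kind that forms the molecules on the cell surface. C57BL/6 mice lack the alpha partner of H2-Eb1, as described below. H2-Aa, the alpha chain, was at 1.88 and 1.76 on Myd88-/- arrays 1 and 2 and at 3.15 and 2.47 on Myd88+/+ arrays 1 and 2. H2-Ab1, its beta partner, was at 4.55 and 4.56 against 5.83 and 5.39, in the same order of arrays. H2-Eb1, a further beta chain, was at 4.43 and 4.27 against 5.55 and 5.25. In all 3 genes both Myd88-/- arrays lay below both Myd88+/+ arrays, Myd88+/+ array 1 was the highest, and the Myd88-/- arrays lay close together. The log2 difference, Myd88-/- minus Myd88+/+, was -0.99 for H2-Aa (standard error 0.27, adjusted p = 0.244 in limma), -1.06 for H2-Ab1 (standard error 0.19, adjusted p = 0.203) and -1.05 for H2-Eb1 (standard error 0.16, adjusted p = 0.194). These are folds of 1.99, 2.08 and 2.07. The second H2-Ab1 probe overlaps the first by 51 bases, 50 of them identical, so it is not an independent reading, and its log2 difference was -1.03. Fewer cells that carry these transcripts and less RNA per cell cannot be told apart in such whole-tissue samples.

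C57BL/6 mice are known to lack a working H2-Ea gene, the alpha partner of H2-Eb1. Its probe was well above background on none of the 4 arrays. H2-Eb2, a little-studied beta chain gene, was well above background on both Myd88+/+ arrays, at -2.19 and -3.09, and on neither Myd88-/- array. It was at least 2.57-fold lower on the latter (adjusted p = 0.194 from limma), and its log2 difference with normexp was -0.54. Bounds hold on the scale used here only, since normexp adds an offset of 50 that draws dim signals together. For such a bound, an array where the probe was not detected was given the lowest signal well above background wherever its own signal was below that.

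Of the genes that edit the peptide, H2-DMa, the alpha chain of H2-DM, was at -0.43 and -0.14 on Myd88-/- arrays 1 and 2 and at 0.80 and 0.15 on Myd88+/+ arrays 1 and 2. H2-DMb1, the main beta chain, was at 0.58 and 0.45 against 1.81 and 1.47. H2-DMb2, a second beta chain gene, was at -1.97 and -3.06 on the Myd88+/+ arrays and not well above background on either Myd88-/- array. The labels did not overlap in any of the 3 genes, but Myd88-/- array 2 and Myd88+/+ array 2 nearly met in H2-DMa. The log2 difference was -0.76 for H2-DMa (standard error 0.28, adjusted p = 0.311). For H2-DMb1 it was -1.12 (standard error 0.16, adjusted p = 0.194, both from limma). H2-DMb2 was at least 2.80-fold lower (adjusted p = 0.268). With an array left out, the log2 difference of H2-DMa ranged from -1.08 to -0.43 and that of H2-Aa from -1.33 to -0.66.

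H2-Oa and H2-Ob, the chains of H2-DO, showed larger differences. H2-Oa was at -4.24 and -3.56 on Myd88-/- arrays 1 and 2, the first of them not well above background, and at 0.01 and -1.45 on Myd88+/+ arrays 1 and 2. The H2-Ob probe brightest over the 4 arrays, the exon-joining one printed above, was at -3.79 and -2.40, again with Myd88-/- array 1 not well above background, and at 0.40 and -0.61 on the Myd88+/+ arrays. The labels were far apart in both genes, and Myd88+/+ array 1 was again the highest. The log2 difference was -3.18 for H2-Oa (standard error 0.59, adjusted p = 0.204). For H2-Ob it was -2.99 (standard error 0.63, adjusted p = 0.209, both from limma). The size depends on the background correction: with normexp it was -1.50 for H2-Oa and -1.63 for H2-Ob, and -0.52 for H2-DMb2.

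The 3 H2-Ob probes differed. A second one, at base 2606 of the transcript, was at 0.52 and -0.31 on the Myd88+/+ arrays and well above background on neither Myd88-/- array, so it was at least 17.2-fold lower there (adjusted p over all 31016 probes tested = 0.262 from limma). The remaining probe, drawn from another transcript, was well above background on none of the 4 arrays and was not tested.

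Cd74, the invariant chain, lies on another chromosome and was at 3.60 and 3.57 on Myd88-/- arrays 1 and 2 and at 4.63 and 4.28 on Myd88+/+ arrays 1 and 2. The labels did not overlap, and the difference came to -0.87 in log2 (limma standard error 0.16, adjusted p = 0.204), a fold of 1.82. Ciita, the transactivator of these genes, was at -4.91 and -2.28 on the Myd88-/- arrays, the first not well above background, and at -1.48 and -3.42 on the Myd88+/+ arrays. Here the labels overlapped, and the standard deviation within each label exceeded the difference of -1.15 (limma standard error 1.20, adjusted p = 0.677). With normexp the difference was -0.24, and without Myd88-/- array 1 it turned to 0.17. The only Ciita probe contains 6 units of a 5-base repeat in a row, which make up 30 of its 60 bases, so its signal may include other transcripts with this repeat.

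**Figure D1:**
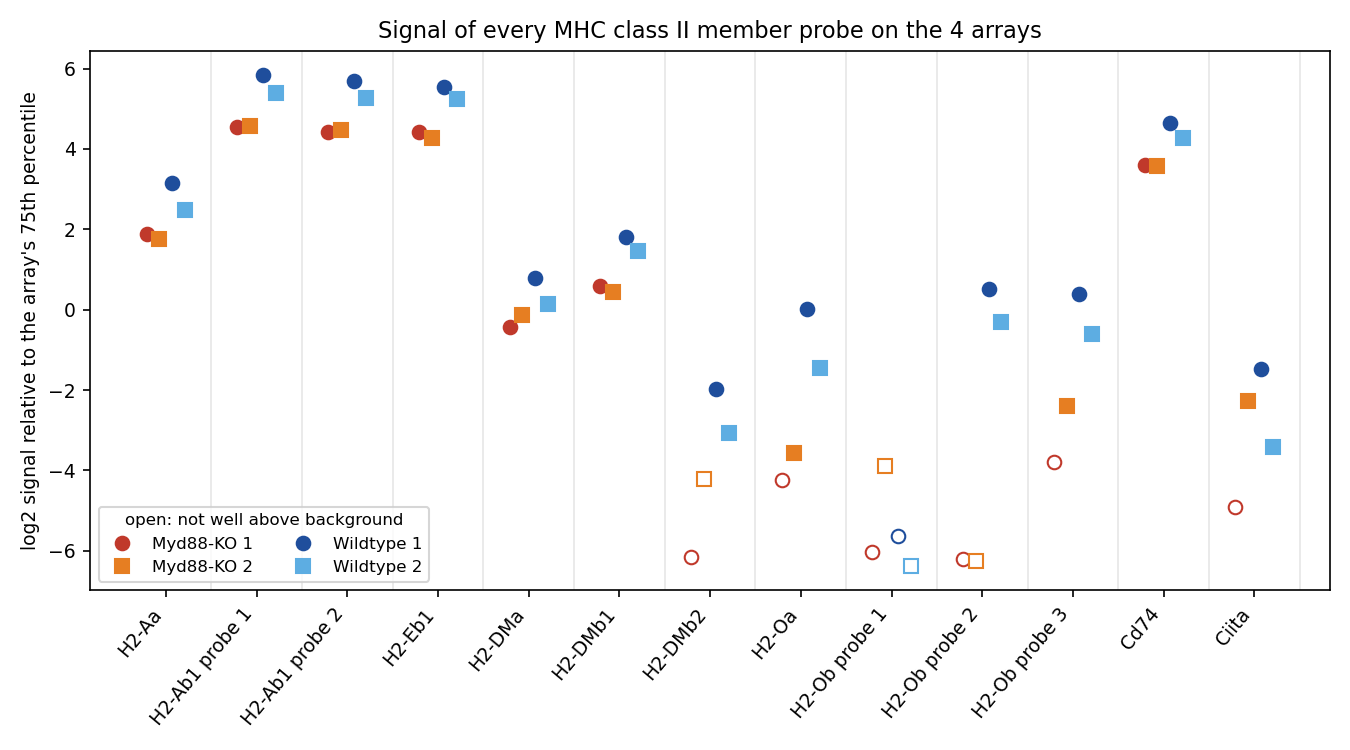
Log2 signal of the 13 member probes relative to the 75th percentile of each array, 1 point for each of the 4 arrays, with open points where the probe was not well above background. Both Myd88-/- arrays lie below both Myd88+/+ arrays except in Ciita and in H2-Ob probe 1, which is open on all arrays.

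As a set, all 10 members were lower on the arrays labelled Myd88-/-, as were 40.4% of the 22312 genes tested. Both Myd88-/- arrays lay below both Myd88+/+ arrays in 9 of the 10, against 18.7% of all genes, and 7 were lower by more than 2-fold, against 3.42% of all genes. At an unadjusted p under 0.05, limma placed 8 of the 10 lower, against 6.83% of all genes, and none higher, against 9.82%. With both Myd88-/- arrays above both Myd88+/+ arrays there was no member, against 33.2% of all genes. With scaling by the median these shares of all genes were 8.37% below and 5.30% above, and 9 members still lay below. The median log2 difference was -1.09 for the members and 0.06 for all genes. After adjustment limma called 0 of the 10 members and 0% of all genes, while 3715 genes had an unadjusted p under 0.05. By exact permutation, groups of 2 and 2 arrays allow no p smaller than 0.333.

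These counts are partly set by the filter on dim probes, because H2-DMb2, H2-Oa, H2-Ob and Ciita entered the fit through the Myd88+/+ arrays alone. The other 6 members were detected on every array. In a fit of only the 20515 genes detected in this way, both Myd88-/- arrays lay below both Myd88+/+ arrays in 6 of the 6 members and in 17.9% of the genes. The same 6 were lower at an unadjusted p under 0.05, against 6.68% of the genes, but only 3 of the 6 were lower by more than 2-fold, against 1.76%. With trended and robust moderation limma called 217 genes lower and 265 higher, among the former H2-Ab1, H2-Eb1, H2-DMb1 and Cd74. With scaling by the median it called 333 lower and 69 higher, among the former H2-DMb2, H2-Oa and H2-Ob but not those 4.

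**Figure D2:**
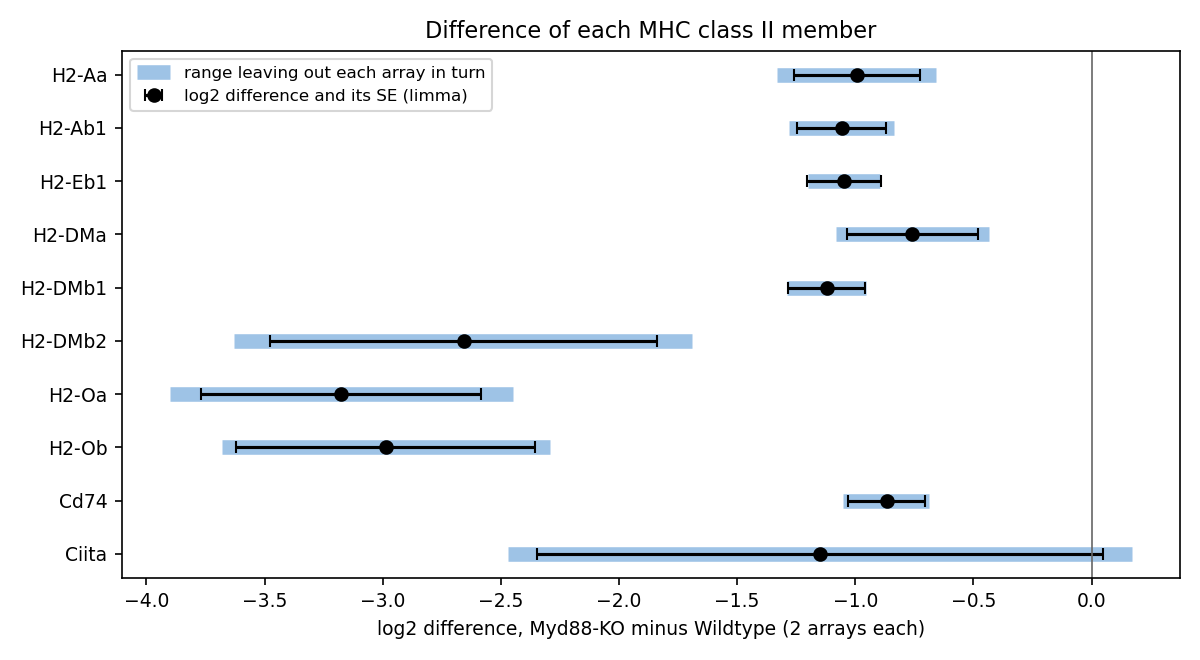
Log2 difference of each member gene, Myd88-/- minus Myd88+/+ (2 arrays each), with limma's standard error as a bar and the range when each array was left out in turn as a band. Undetected arrays are entered at their own signal, the bands of 9 genes stay below 0, and that of Ciita runs from -2.47 to 0.17.

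Differences were also compared as ratios to H2-Aa within each array. The log2 ratio of H2-Ab1 to H2-Aa was 2.67 and 2.80 for the Myd88-/- arrays against 2.69 and 2.92 for the Myd88+/+ arrays, a difference between labels of -0.07. For H2-Oa the ratio was -6.11 and -5.32 against -3.14 and -3.92, a difference between labels of -2.18, and for H2-Ob the difference was -1.99. Both genes were not well above background on Myd88-/- array 1, and with normexp the 2 differences shrank to -0.50 and -0.63. For H2-DMb2, detected on neither Myd88-/- array, no ratio is given. The ratios of H2-Eb1, H2-DMb1, Cd74 and H2-DMa differed by -0.05, -0.13, 0.13 and 0.23. With normexp these became -0.10, -0.04, 0.10 and 0.37, and that of H2-Ab1 became -0.11. The ratio of Ciita differed by -0.16, which turned to 0.76 with normexp.

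The 7 members in the RefSeq promoter table (GRCm38.p6), and H2-Eb2, were searched on both strands in the 300 bases from 250 before to 50 after the annotated start. H2-Ab1, Cd74 and Ciita were not searched here. Class II promoters are known for an X box and a Y box that factors of the Ciita complex bind. The letters TGATTGG, a form of the Y box, were found in 6 of the 7 members and in 7.82% of all 32851 promoters. The letters AACNNATG, found in part of the X box, were present in 4 of the 7 members and in 8.86% of all promoters. The 2 motifs do not overlap. In H2-DMb1, H2-DMb2, H2-Eb1, H2-Ob and H2-Eb2 the second motif stood ahead of the first on the same strand, with 18 to 21 bases between them. Such a pair, with first bases at most 40 bases apart, a distance chosen after seeing these promoters, was present in 20 of all promoters (0.0609%). H2-Oa and H2-Aa held TGATTGG alone, and neither of the 2 H2-DMa starts held either motif. The stretches with a motif are shown, with motifs in capitals, so that the letters in and around the motifs can be compared.
H2-DMb1, chr17:34153087-34153146, plus strand: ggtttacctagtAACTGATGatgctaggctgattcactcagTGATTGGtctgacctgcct
H2-DMb2, chr17:34145116-34145175, plus strand: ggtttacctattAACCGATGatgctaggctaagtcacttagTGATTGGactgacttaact
H2-Eb1, chr17:34305766-34305824, plus strand: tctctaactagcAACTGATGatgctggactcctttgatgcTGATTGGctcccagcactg
H2-Ob, chr17:34238808-34238864, plus strand: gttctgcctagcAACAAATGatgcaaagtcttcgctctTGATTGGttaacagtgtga
H2-Eb2, chr17:34325533-34325591, plus strand: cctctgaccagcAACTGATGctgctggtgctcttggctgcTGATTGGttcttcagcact
H2-Oa, chr17:34092287-34092352, plus strand: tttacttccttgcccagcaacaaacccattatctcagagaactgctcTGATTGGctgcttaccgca
H2-Aa, chr17:34287855-34287920, minus strand: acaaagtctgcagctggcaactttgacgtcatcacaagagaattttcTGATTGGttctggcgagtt
A match is a description of letters and not a binding site. Only these exact letters were searched, so a promoter without a match is not shown to lack a box.

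**Figure D3:**
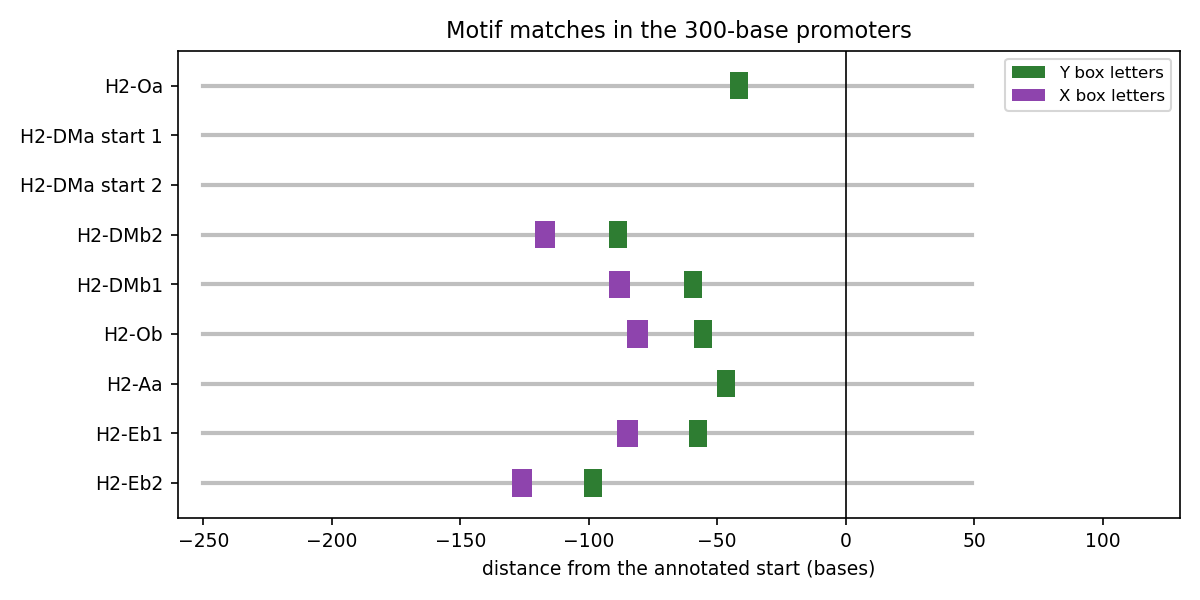
Matches of the letters searched in the promoters of 7 members and H2-Eb2, drawn by distance in bases from the annotated start. The Y box letters begin 45 to 102 bases before the start, and where both motifs are present the X box letters lie farther out.

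Among the factors that bind these boxes, differences were small with the probes used. Here and below, a gene that differed by a value has that log2 difference, Myd88-/- minus Myd88+/+. Of 6 tested genes, 4 were lower and 2 higher, with a median log2 difference of -0.04, and none had an unadjusted p under 0.05. All 6 were lower with quantile normalization, detected-probe scaling and median scaling, at medians of -0.08, -0.09 and -0.09. Rfx5, a core factor, was detected on too few arrays to be tested. Nfya, Rfxank and Creb1 differed by -0.23 (-0.13 with normexp), -0.22 and -0.04, and Rfxap and Nfyc by 0.02 each, signs that turn with the scaling. A second Creb1 probe differed by -0.42 (unadjusted p = 0.047 in limma's fit of all probes). On the interferon-gamma route to Ciita, Ifng was well above background on no array, and 6 of 7 tested genes were lower, with a median of -0.25, also the difference of the brightest, Jak1. Socs1, an inhibitor of the route, differed by -0.97 (-0.44 with normexp), Irf2 by -0.41 and Jak2 by -0.31, all 3 at an unadjusted p under 0.05, whereas Ifngr1 and Ifngr2, the receptor chains, differed by -0.17 and 0.09 (0.04 for the latter with normexp).

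Other genes of antigen processing for class II lay on both sides of 0. Of 10 tested genes, 6 were lower and 4 higher, with a median of -0.06. Of the 7 proteases among them 6 were lower, all by less than the members. Ctsl, the brightest of the list over the 4 arrays, differed by 0.21, and on the Myd88+/+ arrays Ctsb was the brightest. Ctsb, Ctss and Ctsh, lysosomal cathepsins, differed by -0.32, -0.29 and -0.15. Ifi30, the lysosomal thiol reductase, was at 4.54 and 4.22 on Myd88-/- arrays 1 and 2 and at 3.25 and 3.07 on Myd88+/+ arrays 1 and 2. Its arrays did not overlap, and its difference of 1.23 in log2 (limma standard error 0.16, adjusted p = 0.194) had the opposite sign to the members. Marchf1, a ligase that removes class II from the surface, differed by 0.24 with the brightest probe and by -0.57 with the mean of its probes.

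Costimulatory and checkpoint ligands were lower in 5 of 6 tested genes, with a median of -0.88 (-0.42 with normexp). Cd40, not well above background on Myd88-/- array 1, differed by -1.63 (-0.43 with normexp), Cd83 by -1.49, Icosl by -0.89 and Cd86 by -0.69 (-0.33 with normexp), and Cd80 by 0.65 with its brightest probe and by -0.08 with its other tested probe. MHC class I presentation was lower in 11 of 12 tested genes with a smaller median of -0.36, and the brightest, H2-K1, differed by -0.45. Nlrc5, the class I counterpart of Ciita, was at -1.21 and -1.61 against 0.38 and 0.14. Its log2 difference was -1.67, with a limma standard error of 0.19 and an adjusted p of 0.194, but its other tested probe, at -2.53 and -2.55 against -3.10 and -2.80, differed by 0.41. The proteasome subunit Psmb9 and B2m differed by -1.10 and -0.93, and Tap2 and Calr by -0.14 and 0.41.

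Position was examined in the stretch of chromosome 17 from the H2-Oa probe to the H2-Ea probe (chr17:34232033-34481528, NCBI37/mm9). It held 16 tested genes, of which 8 are members. Between them lie Psmb9 and Psmb8, which differed by -1.10 and -0.80, and Tap1 and Tap2, which differed by -0.31 and -0.14. Brd2, a bromodomain gene between H2-Oa and H2-DMa, was at 4.15 and 4.11 against 4.10 and 4.14 in the same order of arrays, a difference of 0.01 (standard error 0.10). Lower levels were therefore not common to all genes of the stretch.

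Several markers of cells that carry class II were lower together with the members. Of 11 B cell markers, 9 were tested and all 9 were lower, 8 of them without overlap. For this list and those that follow, the shares over all genes tested were 40.4% lower and 18.7% below without overlap. The B cell markers had a median log2 difference of -1.91 (-0.998 with normexp). Leaving out 1 array moved this median between -2.36 and -1.01. As with the members, 3 of the 9 entered the fit through the Myd88+/+ arrays alone, and the 6 detected on every array, all lower, had a median of -1.06. Over all 9 tested genes the summed linear signal, relative to the 75th percentile, was 4.02 and 4.04 on Myd88-/- arrays 1 and 2. On Myd88+/+ arrays 1 and 2 it was 18.5 and 10.9. The class II genes had sums of 63.1, 61.0, 146 and 110, so in both lists Myd88+/+ array 1 was the highest and array 2 the next. Over the 4 arrays the brightest B cell marker was Cd79a, which differed by -0.90, and on the Myd88+/+ arrays it was Cd79b. Ms4a1 and Fcrla were well above background on neither Myd88-/- array, and were at least 28.5-fold and 6.04-fold lower there (adjusted p = 0.194 from limma for each), against 7.47-fold and 2.39-fold with normexp. Cd79b differed by -5.08 (-3.63 with normexp) and Cd22, the highest of the list, by -0.33. The part of B cells in the lower class II level was not tested.

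Of 14 T cell markers, 13 were tested and all 13 were lower, 9 without overlap. Their median was -2.31 (-1.14 with normexp, and -2.85 to -1.56 with an array left out). The sums were 13.1, 12.8, 26.8 and 19.0 on Myd88-/- arrays 1 and 2 and Myd88+/+ arrays 1 and 2. Cd3d, Cd5 and Cd3g, not well above background on Myd88-/- array 1, differed by -4.45, -3.38 and -3.27 at their own signal there, and by -2.32, -1.94 and -1.14 with normexp. The brightest, Cd4, differed by -0.04 and Cd3e by -0.06. Cd8a was well above background on neither Myd88-/- array. With normexp, or with Myd88-/- array 1 or 2 left out, 11 of the 13 were lower, and 12 without Myd88+/+ array 1. Of the 13, 5 entered the fit through the Myd88+/+ arrays alone, and the 8 detected on every array, all lower, had a median of -1.65. Mouse T cells are known to carry little class II themselves, and their part in the result was not tested.

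Dendritic cell markers were lower in 8 of 9 tested genes of 12, 7 of them without overlap, with a median of -0.86. Ccr7 differed by -4.32 (-2.77 with normexp) and Zbtb46 by -0.20. Cd209a, not well above background on Myd88-/- array 1, differed by -2.03 (-0.58 with normexp), and Clec9a, not well above background on either Myd88-/- array with the probe used, was at least 1.18-fold lower (1.06-fold with normexp). The list's median was -0.44 with normexp, and 7 of the 9 were then lower. In the fit of genes detected on every array, 5 of 7 were lower, with a median of -0.395, and Flt3, read there from another probe than in the main fit, was higher. The brightest of the list, Siglech, differed by 0.08 and made up most of the summed signal of 270, 285, 251 and 281, so this sum did not move with the members. With the mean of its tested probes Siglech differed by -0.71.

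Macrophage markers lay on both sides of 0. Of 15 tested genes, 6 were lower and 9 higher, with a median of 0.03, which turned to -0.02 with scaling by the median or by detected probes. Leaving out 1 array moved the number lower between 2 and 10 and the median between -0.178 and 0.125. The summed signal was 90.8 and 89.5 for Myd88-/- against 84.6 and 82.6 for Myd88+/+. The brightest was Itgam, at 5.48 and 5.62 against 5.16 and 5.49 with the probe used, which made up a large part of these sums. Its other tested probes were far dimmer, between -3.41 and -2.16 on all 4 arrays, so the sums depend on the probe chosen. Lyz2 differed by -0.44 and Mrc1 by -0.12, Adgre1 (Emr1 on the array) differed by 0.65, and Cd163, not well above background on Myd88+/+ array 2, differed by 2.76 with a standard error of 1.19 (0.84 with normexp). The other Adgre1 probe differed by 0.09. Timd4, a marker of some resident macrophages, was well above background on neither Myd88-/- array and at least 4.02-fold lower there (1.80-fold with normexp, and at least 2.26-fold without Myd88+/+ array 1). Over leukocytes as a whole, 11 of 11 markers were lower, 10 without overlap, with a median of -0.84 (-0.55 without Myd88+/+ array 1) and sums of 33.5, 33.7, 58.5 and 46.4. Rac2, Coro1a and Cd53 differed by -2.01, -1.96 and -1.80 (-1.64, -1.89 and -0.65 with normexp), and Fcer1g and Arhgdib by -0.08 and -0.03, with Lcp1 the brightest. The other Arhgdib probe, detected on all arrays, differed by -1.70. The part of these cells in the class II result was not tested.

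**Figure D4:**
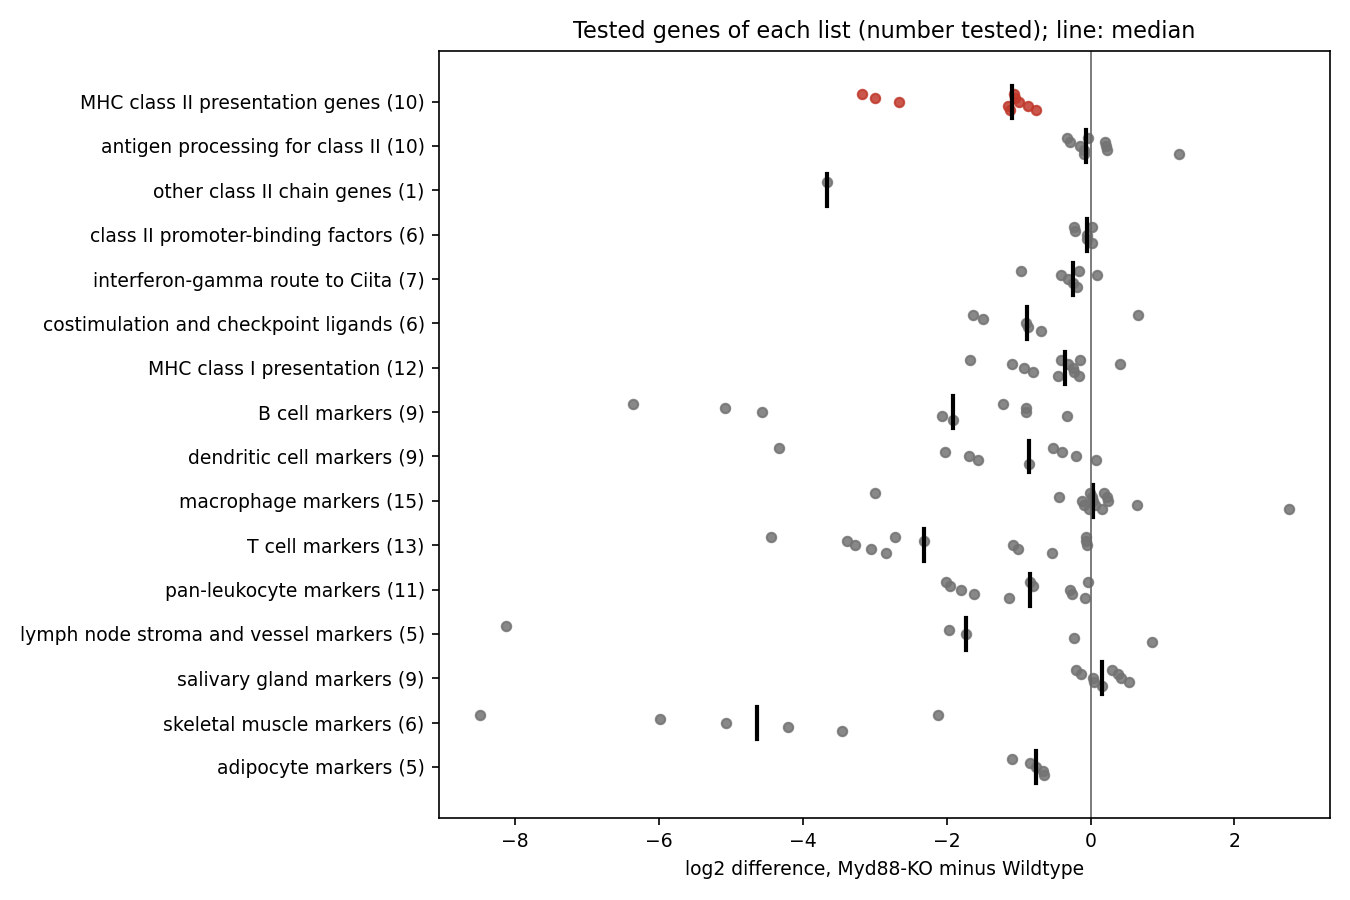
Log2 difference, Myd88-/- minus Myd88+/+, of each tested gene of the 16 lists, with the number tested in brackets and the median as a line. Class II, B cell, T cell, pan-leukocyte, muscle and fat lists lie below 0 throughout, with undetected arrays entered at their own signal, and macrophage and salivary gland lists lie on both sides of it.

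Markers of lymph node and fat, tissues that were to be dissected away, also differed between labels. Of 7 genes of lymph node stroma and vessels, 5 were tested, and 4 were lower, with a median of -1.72 (-0.90 with normexp, and -2.49 to -0.96 with an array left out). The 4 genes detected on every array had a median of -0.97. Glycam1, a mucin of lymph node high endothelial venules, was at -6.29 and -3.48 on Myd88-/- arrays 1 and 2, the first not well above background, and at 4.20 and 2.26 on Myd88+/+ arrays 1 and 2. Cxcl13 differed by -1.96, Fut7 by -1.72 (-0.90 with normexp), Ccl19 by -0.22 and Madcam1 by 0.85. The 2 other Ccl19 probes differed by -3.15 and -0.98, and the other Madcam1 probe by -1.47. Madcam1 was the brightest of the list over the 4 arrays and Glycam1 on the Myd88+/+ arrays. The sums were 5.96 and 5.47 for Myd88-/- against 24.5 and 8.88 for Myd88+/+. As with the class II genes, the highest level was on Myd88+/+ array 1.

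Skeletal muscle is not among the tissues that the labels name as dissected away. All 6 of its markers were lower, with a median of -4.63 (-5.84 to -3.43 with an array left out). Their sums were 2.69 and 2.81 for Myd88-/- against 22.8 and 128 for Myd88+/+. The brightest over the 4 arrays, Acta1, differed by -2.11, Ckm by -3.45 (-1.99 with normexp), Tnni2 by -5.07, Tnnc2 by -5.99, and Myh4, not well above background on either Myd88-/- array, was at least 218-fold lower (51.8-fold with normexp, and at least 88.6-fold without Myd88+/+ array 2 and 535-fold without Myd88+/+ array 1). Over the alternatives Acta1 ranged from -3.11 to -1.12. On the Myd88+/+ arrays Myh4 was the brightest. Here Myd88+/+ array 2 was the highest, unlike in the class II genes. Of 6 adipocyte markers, 5 were tested and all 5 were lower, with a median of -0.76 (-1.14 to -0.38 with an array left out) and sums of 149, 237, 322 and 326. Fabp4, the brightest, differed by -0.84, Plin1 by -1.09, Adipoq by -0.76, Cidec by -0.66 and Cfd by -0.65, and Lep was well above background on no array. Salivary gland markers had a median of 0.17 (0.00 with quantile normalization, and 0.06 to 0.27 with an array left out), and Egf differed by -0.21, Muc19 by -0.13, Bhlha15 by 0.03, a sign that turns with the scaling, Slc12a2 by 0.42 and Krt18 by 0.54. Whether lymph node, muscle or fat was present in the samples, and its part in the lower class II level, was not tested.

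The genes outside all lists whose centred profile over the 4 arrays lay closest to the mean profile of the members were Acap1, Pik3r5, an unnamed transcript of chromosome 15, Btk, Mgst2, Arhgap15, Chst3 and Gimap1. Their root mean square distances were 0.05 to 0.10 log2 units. Acap1 was at -2.23 and -1.71 on Myd88-/- arrays 1 and 2 and at 0.01 and -0.78 on Myd88+/+ arrays 1 and 2, and Btk, a kinase of B cell receptor signalling, was at -2.28 and -1.43 against 0.20 and -0.82. With 4 arrays such likeness is common, since 833 genes (3.73%) had a correlation above 0.95 with this profile. Among them were 6 of the 10 members, but the profile is the members' own mean, so their count cannot be compared with that share. The low point of this profile on Myd88-/- array 1 comes from H2-DMb2, H2-Oa, H2-Ob and Ciita, which were not detected there. The 6 members detected on every array had a mean centred profile of -0.48, -0.50, 0.72 and 0.26, so the nearest genes were picked against a profile shaped in part by dim probes.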

How the data were processed

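Expression was measured on 4 arrays, 2 per label. The deposited intensity of each spot came from Feature Extraction 10.7.3.1, which, per the file headers, subtracts background, detrends and sets dim spots to a surrogate value, with nothing done between arrays. The 4 per-sample value columns of the whole-series table were left unused, since their names match no single sample. The 75th percentile over the array's 59305 non-control spots was subtracted from each log2 signal. Outlier spots were dropped before the spots of a probe were averaged. Detection of a probe required over 0.5 of its spots to be well above background, and a probe was tested where this held on both arrays of at least 1 label. Each gene was represented by its brightest tested probe. The comparison of labels used limma 3.58.1 (lmFit, eBayes; R 4.3.3) without a block, with Benjamini-Hochberg adjustment over all genes tested and a threshold of 0.05. The procedure was tested on simulated data. Probes well above background made up 52.2% to 74.2% of an array and no spot was saturated, so values of dim probes are the least precise. All arrays lie on 1 slide, so no slide effect could be separated.

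The members and lists were chosen with earlier results of these data known. The genes named are every probe of the members, Myd88, in each other list the 3 tested genes with the lowest and the 2 with the highest log2 difference (all where 5 or fewer were tested), and the 8 genes outside the lists with the nearest profile. The brightest gene of a list and genes well above background on no array are also named. Some list genes are not reported here, and the lists were recomputed without them after the results were seen. Brd2, Tap1, Psmb8, Cd8a, Flt3 and Rfx5, the count of proteases and the other probes of named genes were added after their values were seen. Alternatives were normexp background correction (offset 50), other scalings and filters, the mean of probes, flagged spots kept, other moderation, the methods' t-test, a replicate block and each array left out. Coordinates of probes are from the files (NCBI37/mm9), and promoters are from RefSeq (GRCm38.p6). According to the study's text the tissue is the whole SMG, and the labels name both glands.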

Additional observations from a re-analysis of the deposited data

How the results depend on the processing

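Of 15 alternatives, 9 moved the log2 difference of a member, and the others bear only on p-values or on which genes are tested, or left these differences as they were. Of the 82 member values that moved, 81 stayed below 0, the exception being Ciita without Myd88-/- array 1. The members below without overlap numbered 9 or 10, or 6 of the 6 left by the stricter filter. The share of all genes below was 8.37% to 23.5% with all 4 arrays and 28.2% to 32.5% with an array left out. The count of 10 arose only without Myd88-/- array 2 or Myd88+/+ array 2, where non-overlap is easier to reach. Leaving out an array moved the members' median log2 difference between -1.31 and -0.87. Counts of calls moved more. With normexp limma called 79 genes, 0 of them members, and 1 member probe in the separate fit of all probes. With scaling by the median, where its prior degrees of freedom became infinite, it called 402 genes, 3 of them members, and 4 member probes. With trend and robust moderation it called 482 genes, 4 of them members, and 6 member probes. These probe counts come from the fit of all probes and are no share of the genes called. By the methods' t-test 1 gene was called, 926 genes were lower and 2009 higher before adjustment, and 4 members were lower in place of 8. At an unadjusted p under 0.05, scaling by the median gave 755 genes lower and 240 higher (75.9% lower), against 1525 and 2190 (41.0% lower) with the 75th percentile. The cause of these shifts was not tested. Same-numbered arrays did not deviate together (correlation -0.373). With 2 arrays per label, this means that the crossed pairs did, Myd88-/- array 1 with Myd88+/+ array 2 and Myd88-/- array 2 with Myd88+/+ array 1. With the replicate block limma called 0 genes and 0 member probes, with 2410 genes and 7 members at an unadjusted p under 0.05 in place of 3715 and 8, and it changed no call. With crossed pairs as a block, chosen after seeing the data, it called 0 genes and 0 member probes.

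Signs of named genes turned near 0 or between probes. With normexp, Creb1 was at 0.0944, Zbtb46 at 0.0944, Nfyc at -0.0338 and Bhlha15 at -0.0403. Rfxap, Nfyc and Bhlha15 were at -0.0228, -0.0649 and -0.0472 with quantile normalization, -0.026, -0.0255 and -0.0132 with the percentile of detected probes, and -0.0311, -0.0307 and -0.0183 with scaling by the median. Siglech was at -0.00146 with quantile normalization. With the mean of probes Marchf1 (March1 on the array), Siglech and Madcam1 were at -0.574, -0.709 and -0.31. Leaving out each array gave ranges of -2.47 to 0.17 for Ciita, -0.138 to 0.18 for Rfxap, -0.196 to 0.0799 for Cd3e and -0.0969 to 0.0112 for Creb1. The ranges were -0.313 to 0.0658 for Mrc1, -0.112 to 0.0422 for Arhgdib, -0.184 to 0.0952 for Cd4 and -0.0677 to 0.11 for Nfyc. They were -0.496 to 0.0884 for Zbtb46, -0.00644 to 0.172 for Siglech, -0.61 to 0.163 for Ccl19 and -0.0183 to 0.0855 for Bhlha15.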
